A study of Homo sapiens with 22 samples.

Results

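SH-SY5Y cells carrying shRNAs against the CASC15-004 transcript and grown as spheres were compared with control spheres of the same line. SH-SY5Y is an established human neuroblastoma line. The comparison takes 3 of the 22 libraries of the series: the spheres of cells carrying one or the other of 2 shRNAs against CASC15-004 (sh004 sh1 and sh004 sh2), and 1 sphere library with a scrambled shRNA that has no mammalian target (control). All of these cells carried a lentiviral shRNA, were selected with puromycin into stable populations and were kept in sphere forming medium. The sh004 sh2 library carries no culture tag and was placed among the spheres by its title. The series also holds 2 spheres with shRNAs against CASC15-003 (sh003), 15 monolayer libraries with the same kinds of shRNA and a further pair from another line. The monolayers carry 3 batch numbers in their titles and were taken at day 0 or after 7 days of retinoic acid (day 7). Sphere and monolayer libraries are total RNA depleted of ribosomal RNA, and nothing in the labels says that the libraries of a group came from separate cultures, so the p-values reflect how far these libraries spread and may be technical.

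CASC15 is a long non-coding RNA gene at a neuroblastoma risk locus, where it lies beside SOX4 and opposite NBAT1. Neuroblastoma cells are known in a neuron-like, adrenergic state and in a mesenchymal state, and sphere culture is used to enrich for cells that grow without attachment. NF-kB is a family of transcription factors held in the cytoplasm by inhibitors such as NFKBIA, and once released it raises cytokines, adhesion molecules and its own inhibitors. Class I molecules, made of an HLA heavy chain and B2M, show peptides from inside the cell to T cells, and neuroblastoma is known for low class I levels.

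The shRNA targets are shown because they define which transcripts were aimed at. Each is written 5′ to 3′ in the sense of the transcript, as the whole target of 21 bases, with no part marked.
CASC15-004 sh1: caggctgttcccagggattta
CASC15-004 sh2: taggaataccttacatccaat
CASC15-003 sh1: ctagcactgacctccttcatt
CASC15-003 sh2: ctttccatcagccaacaatat
Both CASC15-004 targets match the first exon of 2 of the 8 CASC15 transcripts in GENCODE release 29 (GRCh38), with 11 and 4 exons. On chromosome 6 the sh1 target covers bases 22146977 to 22146997 and the sh2 target bases 22146898 to 22146918, on the plus strand. The CASC15-003 targets match 2 other CASC15 transcripts, at bases 21668702 to 21668722 (sh1) and 21668743 to 21668763 (sh2), in the third exon of one and the second exon of the other. No transcript of another gene held any of the 4 targets without a mismatch. The files count CASC15 as one gene, and its values sum over all transcripts. CASC15 was at 2.15 RPKM (reads per kilobase of gene, scaled to the library's assigned reads) in the control sphere and at 1.59 and 1.60 in the sh004 spheres (log2 difference -0.34, SE 0.35, adjusted p = 0.581). Both sh004 spheres lay below the control sphere, and the difference did not pass.

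The control sphere held 38.8 M assigned reads (M for 1000000 reads), the sh004 spheres 62.1 (sh1) and 27.9 M (sh2), and the sh003 spheres 32.8 and 27.8 M. Across the 14711 genes tested (1 RPKM or above in at least 2 of the 5 spheres), the 2 sh004 spheres were the most alike pair (r 0.964 across genes on log2(RPKM + 0.5)), with 702 genes over 2-fold apart. The control sphere differed over 2-fold from the sh004 spheres in 2250 (sh1) and 2170 genes (sh2). Differences are given as log2(RPKM + 0.5) of the sh004 spheres minus that of the other group, which understates the change of low genes. They were tested with limma over the 5 spheres, and genes whose p, adjusted after Benjamini and Hochberg over all genes tested, fell under 0.05 are the ones named as called. The control is 1 library, whose spread was taken to equal that of the knockdown pairs, so how far another control sphere would lie from it was not measured. Leaving out either sh004 library left 0 calls by limma, with 2341 (without sh1) and 2304 genes (without sh2) at an unadjusted p under 0.05, and every called gene kept its direction. Without the sh003 sh1 or sh2 sphere there were 92 and 122 calls. Over all genes tested the median difference was -0.16, and it was -0.05 with median-ratio size factors, so small differences below 0 depend on the scaling. Both sh004 spheres lay above the control in 31.8% of the genes tested and below it in 49.4%.

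In the sh004 spheres 18 genes rose over the control sphere (0.122% of the genes tested) and 1 fell (0.0068%), 19 in all (0.129%), while 3268 genes (22.2%) had an unadjusted p under 0.05. The genes that rose encode secreted signals and their receptors (CCL19, IL34, PTGIR), inhibitors and binding proteins outside the cell (TNFAIP6, IGFBP3, TFPI2, C1QTNF1), a complement protease (C1S), a basement membrane chain (LAMB3), class I heavy chains (HLA-C, HLA-E) and intracellular proteins (G0S2, SOD2, S100A16, VAMP5, DRAM1). The gene that fell, CDKN1C, encodes an inhibitor of cyclin-dependent kinases. In all 19 genes the sh004 libraries lay within 2-fold of each other, and only 4.77% of all genes tested lay further apart. The test favours genes whose libraries agree, so this count gives the calls no further weight. Of the 18 genes that rose, 9 were under 1 RPKM in the control sphere and 4 were tested only because the sh004 spheres brought them over the level filter.

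**Figure D1:**
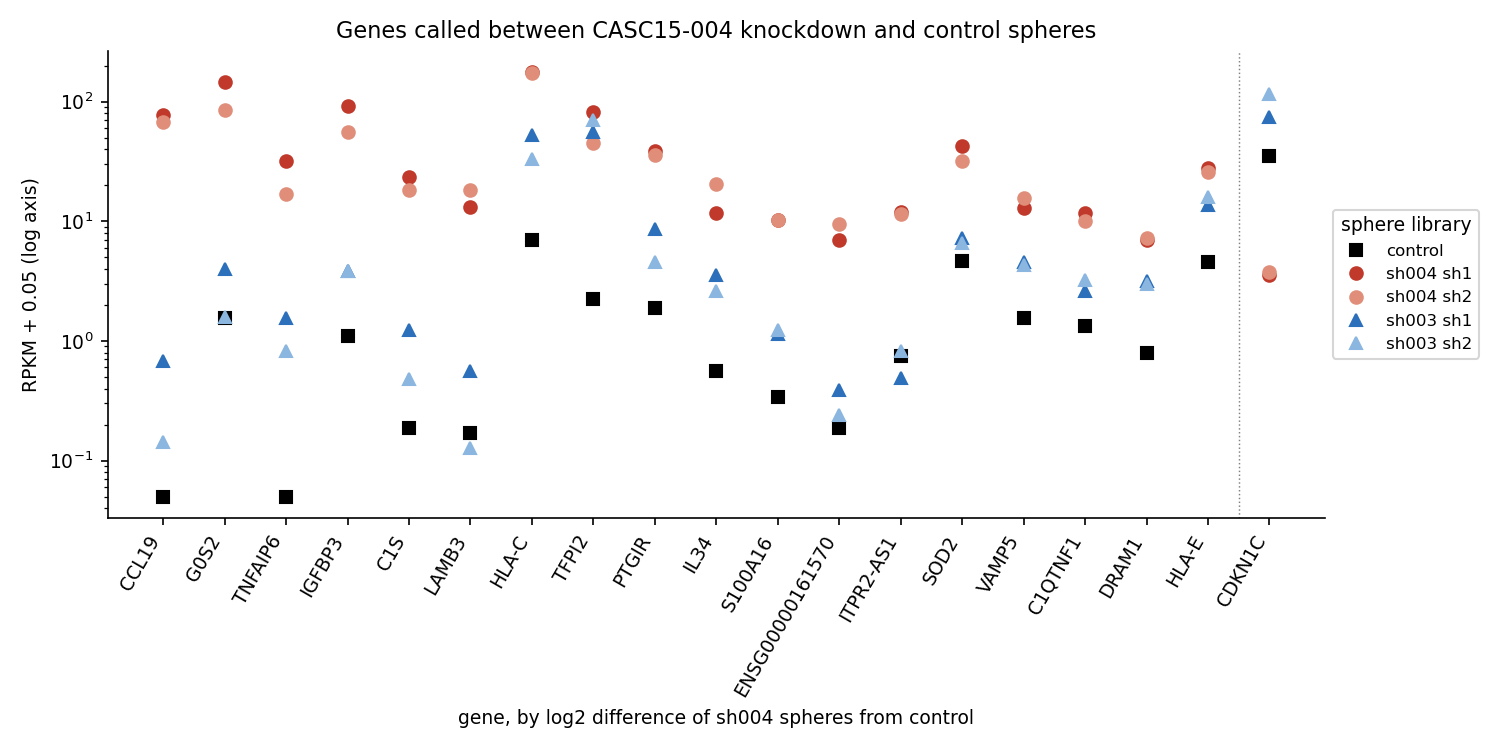
RPKM (plus 0.05, on a log axis) of the 19 called genes in each of the 5 sphere libraries, ordered by the log2 difference of the sh004 spheres from the control sphere. Each point is 1 library; the 2 sh004 points lie together and above the control for 18 genes, and below it for CDKN1C.

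**Figure D2:**
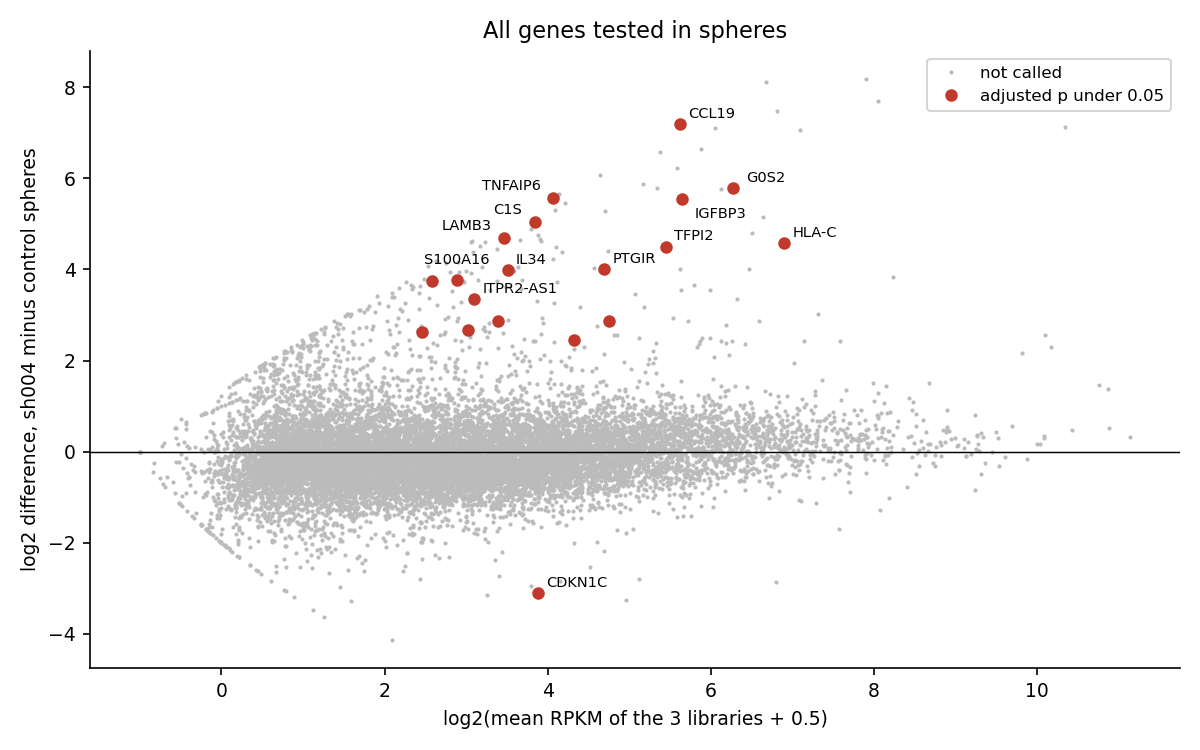
Log2 difference of the sh004 spheres from the control sphere (y) against log2(mean RPKM of the 3 libraries + 0.5) (x) for the 14711 genes tested, called genes in red. Genes with larger differences than the called ones lie at the top in grey: their standard errors are larger.

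CCL19, a chemokine that draws T cells and dendritic cells through CCR7, showed the largest change among the called genes. It had no read in the control sphere, 78.0 RPKM in the sh004 sh1 sphere and 68.1 in the sh2 sphere, at least 734-fold higher against the limit that 3 reads allow (0.0995 RPKM). Both sh004 spheres stood far above the control and above the sh003 spheres, which gave 0.627 and 0.0927. The log2 difference from control was 7.20 (SE 0.42, adjusted p = 0.0168), the gene lying on chromosome 9, bases 34689567 to 34691277 (GRCh38, as for all gene positions here). Its receptor gene CCR7 was at 0.154 RPKM in the control and at 0.270 and 0.0856 in the sh004 spheres, too low to be tested.

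IL34, a ligand of the macrophage receptor CSF1R, was at 0.508 RPKM in the control sphere and at 11.8 (sh1) and 20.4 (sh2) in the sh004 spheres, with no overlap (log2 difference 3.99, SE 0.39, adjusted p = 0.0391). PTGIR, the receptor for prostacyclin, was at 1.85 in the control and at 38.5 and 35.8 in the sh004 spheres (log2 difference 4.00, SE 0.37, adjusted p = 0.0391). The sh003 spheres lay between control and sh004 for both genes. They gave 3.49 and 2.55 RPKM for IL34 and 8.63 and 4.55 for PTGIR.

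TNFAIP6 encodes a hyaluronan-binding protein that is secreted on inflammatory stimulation. It had no read in the control sphere and 32.0 and 16.8 RPKM in the sh004 spheres, at least 498-fold higher against the 3-read limit of 0.049 RPKM (log2 difference 5.57, SE 0.47, adjusted p = 0.0383). The sh003 spheres gave 1.51 and 0.776, above the control and well below sh004. The gene lies on chromosome 2, bases 151357592 to 151380048.

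IGFBP3, which binds insulin-like growth factors outside the cell, was at 1.06 RPKM in the control sphere and at 92.1 and 55.9 in the sh004 spheres, 70.1-fold higher in the mean (log2 difference 5.54, SE 0.34, adjusted p = 0.0168). The sh003 spheres were alike at 3.78 and 3.76, between the other groups. IGFBP3 (chromosome 7, bases 45912245 to 45921874) was the single member of a list of 21 insulin-like growth factor genes to be called. Of the 19 members with a read in the 3 libraries, 6 lay above and 9 below the control in both sh004 spheres, with a median difference of -0.16. Among all genes with a read, 26.7% lay above and 41.9% below.

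C1S, the protease that cleaves complement C4 and C2 in the classical pathway, was at 0.137 RPKM in the control and at 23.3 and 18.1 in the sh004 spheres, 151-fold higher (log2 difference 5.05, SE 0.42, adjusted p = 0.0383). It lies on chromosome 12, bases 6988259 to 7071032. LAMB3, the beta chain of laminin-332, was at 0.121 in the control and at 13.2 and 18.2 in the sh004 spheres, 130-fold higher (log2 difference 4.69, SE 0.44, adjusted p = 0.0391). Neither gene overlapped between the groups, and the sh003 spheres gave at most 1.19 for C1S and 0.513 for LAMB3.

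TFPI2, an inhibitor of serine proteases such as plasmin, followed another order. It was at 2.21 RPKM in the control sphere, at 82.5 and 44.8 in the sh004 spheres and at 56.2 and 69.7 in the sh003 spheres. It was the only called gene, of those that rose, that did not also differ from sh003: the sh004 and sh003 values overlapped (log2 difference -0.04, SE 0.31, adjusted p = 0.927), while the difference from control was 4.5 (SE 0.38, adjusted p = 0.0383).

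G0S2, an inhibitor of the triglyceride lipase PNPLA2, was at 1.52 RPKM in the control and at 145 and 84.7 in the sh004 spheres, 75.7-fold higher (log2 difference 5.79, SE 0.53, adjusted p = 0.0391). The sh003 spheres gave 3.98 and 1.54, close to the control. SOD2, the mitochondrial superoxide dismutase, was at 4.58 in the control, at 42.9 and 31.6 with sh004 and at 7.27 and 6.48 with sh003 (log2 difference from control 2.88, SE 0.27, adjusted p = 0.0391). S100A16, a calcium-binding protein, was at 0.288 in the control and at 10.1 and 10.2 with sh004, against 1.09 and 1.19 with sh003 (log2 difference 3.76, SE 0.28, adjusted p = 0.0318). These intracellular genes thus shared one order, with the sh004 spheres highest. VAMP5, C1QTNF1 and DRAM1, outside the rule for naming and chosen after their values were seen, rose by 2.87, 2.66 and 2.62 on the log2 scale, from 0.736 to 1.51 RPKM in the control to 6.98 to 15.7 in the sh004 spheres.

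Among the called genes were an antisense gene and a gene known here by its identifier alone. ITPR2-AS1, antisense to the calcium channel gene ITPR2, was at 0.70 RPKM in the control and at 11.9 and 11.5 in the sh004 spheres (log2 difference 3.35, SE 0.32, adjusted p = 0.0391). ITPR2 itself was at 5.55 in the control and at 1.41 and 1.79 with sh004 (log2 difference -1.53, adjusted p = 0.110), so the overlapping pair lay on opposite sides of the control. The strand setting of the read counting is not given in the sources used here, and without it reads of overlapping genes cannot be told apart. The gene listed as ENSG00000161570 matched no entry of the reference tables, so its symbol and type are not given. Without a symbol it could not be counted in any gene list. It was at 0.136 in the control and at 6.97 and 9.37 with sh004 (log2 difference 3.75, SE 0.37, adjusted p = 0.0391).

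CDKN1C, also known as p57, is an imprinted gene that holds cells out of the cycle. It was at 35.2 RPKM in the control sphere, at 3.54 and 3.75 in the sh004 spheres and at 74.4 and 117 in the sh003 spheres. It fell by 3.11 on the log2 scale (SE 0.31, adjusted p = 0.0391) to 0.103 times the control level, with the control between the knockdown groups and no overlap. It lies on chromosome 11, bases 2883213 to 2885773. The other genes with the smallest p among those below the control did not pass: the phosphatase gene PPM1E was at 5.17 in the control and at 0.442 and 0.347 with sh004 (log2 difference -2.67, adjusted p = 0.0592), MAP2, a dendrite microtubule protein, at 18.8 against 4.55 and 4.15 (log2 difference -2.00, adjusted p = 0.0689), and ENSG00000238369 at 10.9 against 0 and 0.344 (log2 difference -4.13, adjusted p = 0.0686). The other genes of the list of cell cycle inhibitors and related stress-response genes did not all share its direction. Of the 24 genes on the list, 10 lay above and 4 below the control in both sh004 spheres (median 0.11), and CDKN1C was the only one called. Among all genes with a read, 26.7% lay above and 41.9% below. CDKN1A, the inhibitor p21, was at 15.96 in the control, 199 and 71.9 with sh004 and 87.4 and 113 with sh003 (log2 difference 2.87, adjusted p = 0.105).

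NF-kB target and feedback genes had the highest median difference of the lists examined, leaving aside the marker genes given for this comparison. Of 28 genes, 27 had a read and 24 of them lay above the control in both sh004 spheres, none below in both, with a median difference of 3.09 against -0.02 over all 31551 genes with a read. For comparison, 8410 of those (26.7%) lay above and 13234 (41.9%) below in both. TNFAIP6 and SOD2 were the members called. The others did not pass singly. Among these, chosen after their values were seen, RELB, a subunit of the alternative NF-kB pathway, was at 3.66 RPKM in the control and at 160 and 135 in the sh004 spheres (log2 difference 5.14, adjusted p = 0.139), and the adhesion receptor gene ICAM1 was at 0.493 against 40.7 and 35.5 (log2 difference 5.28, adjusted p = 0.109). IER3, an early response gene, was at 0.437 against 160 and 177 (log2 difference 7.49, adjusted p = 0.10). CCL2, a monocyte chemokine and the most abundant of the list, was at 13.1 against 2254 and 1621 (log2 difference 7.13, adjusted p = 0.18). The interleukin gene IL6 had no read in any of the 3 libraries.

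The same list also differed between the sh003 spheres, which bears on the spread used in the test. The sh003 sh1 sphere gave 56.5 RPKM for RELB, 10.3 for ICAM1 and 1956 for CCL2, and the sh003 sh2 sphere 2.90, 0.738 and 13.7, the latter near the control. Summed over the 28 genes, RPKM came to 67.5 in the control sphere, 3277 and 2485 in the sh004 spheres, 2368 in the sh003 sh1 sphere and 74.1 in the sh003 sh2 sphere. CCL2 made up most of the sum in the sh003 sh1 sphere. The median level of the list, as log2(RPKM + 0.5), was -0.05 in the control, 3.61 and 3.44 in the sh004 spheres, 2.64 in the sh003 sh1 sphere and 0.23 in the sh003 sh2 sphere. The sh003 sh1 sphere thus lay between the control and sh004, and the sh003 sh2 sphere near the control. Fitting the control and sh004 spheres alone, without the sh003 pair, called 119 genes (106 higher, 13 lower), 18 of them among the 19. Whether these levels come from the loss of the transcript, from the shRNA construct or from the culture was not tested.

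**Figure D3:**
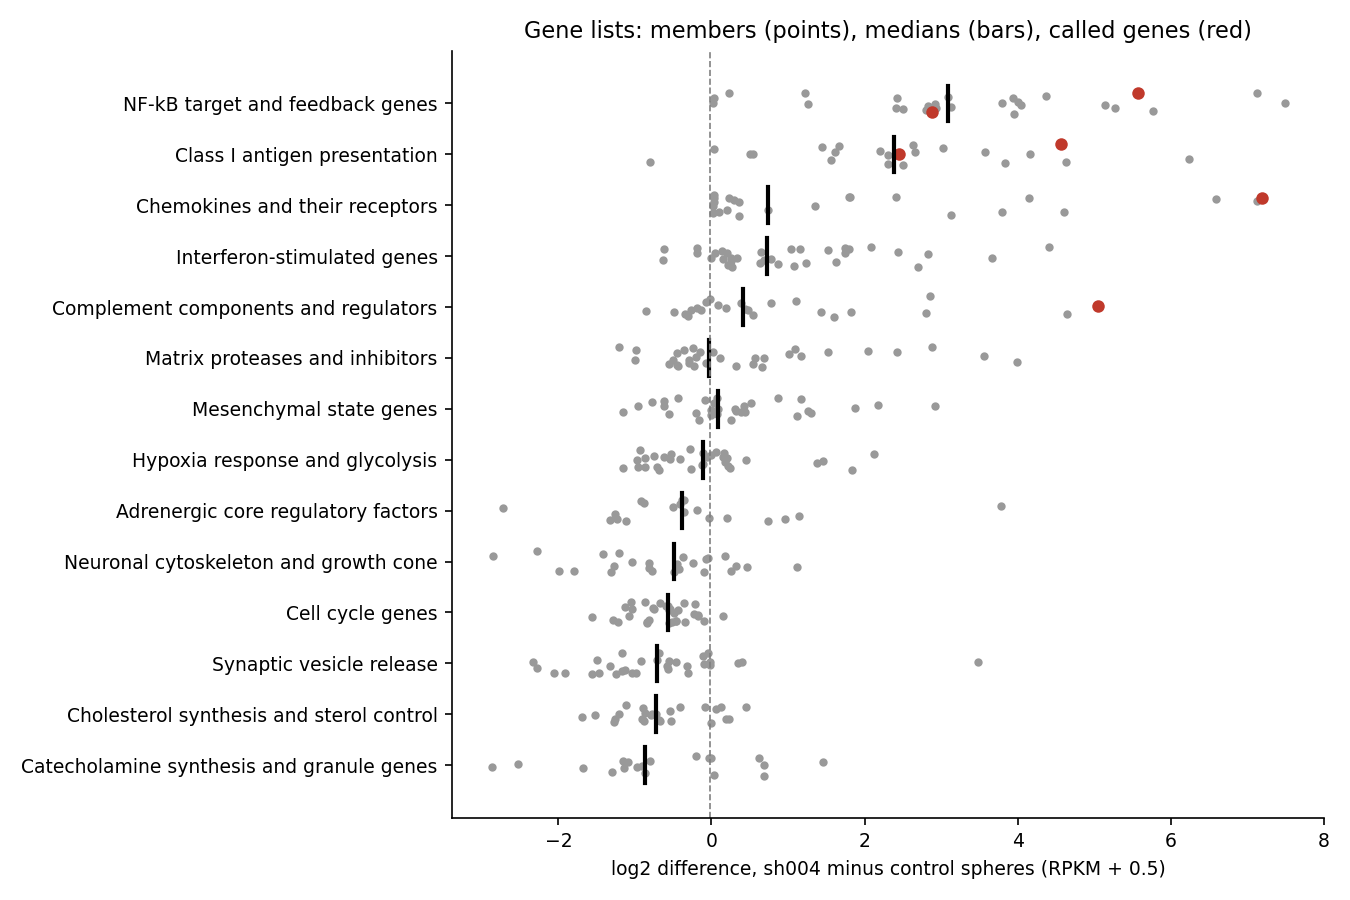
Log2 difference of the sh004 spheres from the control sphere (x) for the members of 14 gene lists (y); each point is a gene with a read, bars are list medians and red points are called genes. NF-kB and class I genes lie almost wholly to the right of 0 (medians 3.09 and 2.38), cell cycle genes almost wholly to its left (median -0.56).

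Chemokines and their receptors, a list of 24 genes matched by symbol with 23 read, shared this direction. The member without a read was the entry matched to the symbol CCL5. Reads under an identifier with no symbol, such as the called ENSG00000161570, could not be assigned to CCL5 or any other member. CCL5 is therefore not shown to be silent. In both sh004 spheres 15 lay above the control and none below (median 0.74), against 26.7% and 41.9% of all genes with a read. CCL19 was the member called of those matched by symbol. CXCL10, which draws T cells through CXCR3, was at 0.132 RPKM in the control and at 47.8 and 75.7 with sh004 (log2 difference 6.59, adjusted p = 0.0689). CCL21, the other ligand of CCR7, had no read in the control and 20.0 and 6.70 with sh004 (log2 difference 4.60, adjusted p = 0.0757), and CCL7 had none and 13.8 and 4.98 (log2 difference 4.15, adjusted p = 0.105). The control lay below both sh004 spheres for each of them. Many members stayed under 1 RPKM in every sphere, among them the receptor genes CCR7, CXCR2 and ACKR3.

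Class I antigen presentation genes showed the next highest list median. All 22 genes were read, 20 lay above the control in both sh004 spheres and 1 below (CANX, a chaperone), with a median difference of 2.38. For all genes with a read the shares were 26.7% above and 41.9% below. HLA-C and HLA-E were called. HLA-C was at 6.89 RPKM in the control and at 177 and 173 in the sh004 spheres, 25.4-fold higher (log2 difference 4.57, SE 0.31, adjusted p = 0.0232), with 52.8 and 33.1 in the sh003 spheres. HLA-E, a ligand of NK-cell receptors, was at 4.5 in the control, 27.9 and 26.0 with sh004 and 13.7 and 16.1 with sh003 (log2 difference from control 2.46, SE 0.23, adjusted p = 0.0391). For both genes the 5 spheres fell in the order control, sh003, sh004 with no overlap. HLA genes are near-identical in part, and how the counting shared reads between them is not given, so the split between heavy chains is uncertain.

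Most other class I genes also lay above the control in both sh004 spheres without passing. B2M, the light chain, was at 30.01 RPKM in the control and at 446 and 427 with sh004 (log2 difference 3.84, adjusted p = 0.0689). HLA-B was at 0.445 against 77.9 and 63.8 (log2 difference 6.23, adjusted p = 0.0996), the largest difference of the list. The peptide transporter gene TAP1 was at 0.103 against 11.4 and 9.33 (log2 difference 4.16, adjusted p = 0.105), and PSMB8 of the immunoproteasome at 0.385 against 18.5 and 25.03 (log2 difference 4.64, adjusted p = 0.0950). NLRC5, the transactivator of class I genes, was at 0.0437 against 2.08 and 2.33 (log2 difference 2.31, adjusted p = 0.102). All 22 genes reached 1 RPKM in both sh004 spheres, against 12 in the control, 19 in the sh003 sh1 sphere and 13 in the sh003 sh2 sphere.

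Interferon-stimulated genes lay above the control less far. Of 34 genes with a read, 27 lay above and 4 below in both sh004 spheres (median 0.73), against 26.7% and 41.9% of all genes with a read. None of the 34 was called by limma. BST2, which tethers virus at the cell surface, was at 1.31 RPKM in the control and at 32.8 and 44.4 with sh004 (log2 difference 4.41, adjusted p = 0.102), the largest of the list. Next came GBP2 (3.66, adjusted p = 0.0900), IFIH1 (2.83, adjusted p = 0.109) and IFITM3 (2.69, adjusted p = 0.0689). Widely used interferon markers stayed low. IFIT1 was at 0.452 in the control and 0.623 and 0.790 with sh004, and MX1 was under 0.15 RPKM in these 3 libraries.

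Complement genes were mixed. Of 24 with a read, 13 lay above and 6 below the control in both sh004 spheres (median 0.41), with C1S called. The shares over all genes with a read were 26.7% above and 41.9% below. C3, the central component, was at 0.241 RPKM in the control and at 18.9 and 17.3 with sh004 (log2 difference 4.65, adjusted p = 0.105), and C1R, the partner of C1S, at 0.230 against 7.47 and 3.03 (log2 difference 2.86, adjusted p = 0.105). Clusterin (CLU), an inhibitor of the terminal complex, was at 5.04 against 36.8 and 39.7 (log2 difference 2.81, adjusted p = 0.0573). These 3 did not overlap with the control, and none of the 3 passed.

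Cell cycle genes lay mostly below the control, and none was called. Of 32, none lay above and 29 below the control in both sh004 spheres, with a median difference of -0.56. Of all genes with a read, 26.7% lay above and 41.9% below. The mitotic checkpoint kinase gene BUB1B was at 14.6 RPKM in the control and at 3.76 and 5.60 with sh004 (log2 difference -1.57, adjusted p = 0.105), and TOP2A, a topoisomerase of dividing cells, at 39.4 against 14.5 and 18.9 (log2 difference -1.22, adjusted p = 0.123). RRM1 (-1.28, adjusted p = 0.105) and BUB1 (-1.13, adjusted p = 0.128) came next. The proliferation marker MKI67 was at 15.9 in the control, 5.08 and 10.4 with sh004 and 17.6 and 21.3 with sh003. TK1, with 41.9 against 35.5 and 61.1, was among the 3 members whose sh004 spheres straddled the control.

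Cholesterol synthesis genes and neuronal genes also lay mostly below the control, and no member of these lists was called. Their counts stand beside 26.7% above and 41.9% below for all genes with a read. Of 25 cholesterol genes, 4 lay above and 18 below in both sh004 spheres (median -0.73). SCD, a fatty acid desaturase, was at 60.3 RPKM in the control and at 14.5 and 22.9 with sh004 (log2 difference -1.70, adjusted p = 0.144), and HMGCS1, an early enzyme of the pathway, at 24.1 against 6.98 and 9.39 (log2 difference -1.52, adjusted p = 0.161). Of 31 synaptic vesicle genes, 3 lay above and 24 below (median -0.71): UNC13A, which primes vesicles, was at 12.7 against 1.14 and 3.73 (log2 difference -2.33, adjusted p = 0.126) and CPLX2 at 12.5 against 1.62 and 2.86 (log2 difference -2.28, adjusted p = 0.105). SV2B stood on the other side at 0.0186 against 7.59 and 3.68 (log2 difference 3.49, adjusted p = 0.109). Of 25 neuronal cytoskeleton genes, 5 lay above and 18 below (median -0.49), led by the neurofilament gene INA at 41.0 against 5.20 and 5.33 (log2 difference -2.85, adjusted p = 0.0869). Against the same control, the sh003 spheres had medians of -0.43 (synaptic vesicle) and -0.79 (cytoskeleton), with INA at 19.2 and 8.55. The medians of sh004 minus sh003 were -0.29 and -0.06. Neuronal levels below this control sphere were thus not particular to sh004.

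Catecholamine and adrenergic genes, which mark the sympathetic identity of this line, lay on both sides of the control. Over all genes with a read, 26.7% lay above the control and 41.9% below it in both sh004 spheres. Of 19 catecholamine and granule genes, 4 lay above and 10 below in both sh004 spheres (median -0.87), while their summed level was 1924 RPKM in the control and 2888 and 3556 with sh004. CHGA, the granule protein chromogranin A and the most abundant of them, was at 792 RPKM in the control and at 1808 and 2614 with sh004 (log2 difference 1.46, adjusted p = 0.355). The neuropeptide gene NPY was at 261 RPKM in the control and at 31.2 and 40.1 with sh004 (log2 difference -2.87, adjusted p = 0.157), and TH, the first enzyme of catecholamine synthesis, at 3.34 against 0.348 and 0.0221 (log2 difference -2.53, adjusted p = 0.118). Of 19 adrenergic transcription factors, 5 lay above and 13 below (median -0.38). Among those above was TBX2, at 24.2 in the control against 73.6 and 39.6 (log2 difference 1.15, adjusted p = 0.165). MYC, a growth-promoting transcription factor, was at 23.8 in the control against 3.58 and 2.83 (log2 difference -2.72, adjusted p = 0.105). Mesenchymal genes (31 with a read) lay above in 11 and below in 7 (median 0.08), so neither state list stood wholly on one side.

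Matrix proteases and their inhibitors (32 genes) lay above the control in 14 cases and below in 15 (median -0.03), with single large values. ADAMTS9, a protease of versican and aggrecan, was at a log2 difference of 3.99 (adjusted p = 0.0689), and the plasminogen activators PLAT and PLAU at 3.56 and 2.88. Matrix genes (29 with a read) lay above in 13 and below in 8 (median 0.06). Hypoxia and glycolysis genes (32 with a read) lay above in 9 and below in 17 (median -0.12). Reference genes of general metabolism, 18 in all, lay above in 7 and below in 8, with a median of -0.05. The shares over all genes with a read were 26.7% above and 41.9% below.

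The transcription factor SOX9 and its partners gave no call. SOX9 was at 3.15 RPKM in the control sphere and at 14.0 and 17.3 with sh004, with 15.5 and 9.67 in the sh003 spheres (log2 difference of sh004 from control 2.14, SE 0.34, adjusted p = 0.0868). The sh004 values overlapped those of sh003. The chromatin remodeller CHD7 was at 13.8 in the control and at 8.91 and 7.71 with sh004 (log2 difference -0.71, adjusted p = 0.175), and against sh003, at 16.7 and 14.6, it was lower (log2 difference -0.88, SE 0.20, adjusted p = 0.0185). The deubiquitinase USP36 (9.52 against 7.19 and 8.54) and SOX4 (67.5 against 59.8 and 50.9) lay below the control in both sh004 spheres (log2 differences -0.27 and -0.29, adjusted p = 0.542 and 0.475). NBAT1 had 0.186 RPKM in the control and 0.108 and 0.0738 with sh004, under the level tested.

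Markers of other cell types were read in the same libraries. Markers of neuroblasts, 10 genes, summed to 2068 RPKM in the control and to 3045 and 3694 in the sh004 spheres. In both sh004 spheres 3 lay above and 6 below the control (median difference -0.29), against 26.7% and 41.9% of all genes with a read. None of the 10 was called. CHGA, given above, took the largest part of these sums. Of the transcription factors on the list, named after their values were seen, HAND2 was at 227 RPKM in the control and at 274.2 and 251.3 with sh004, and ISL1 at 164 against 127 and 105. Immune markers (7 of 10 read) summed to 1.92 RPKM in the control and 3.11 and 2.02 with sh004. The T-cell receptor complex genes CD3D and CD3E had no read in the 3 libraries, and PTPRC, the pan-leukocyte marker, was at 0.0154 in the control and at 0 in both sh004 spheres. Endothelial markers summed to 12.8 against 10.8 and 12.7, with PECAM1 at 0. Fibroblast markers summed to 119 against 130 and 108, and Schwann and melanocyte markers to 7.08 against 9.36 and 9.41. Epithelial markers summed to 1.89 against 8.50 and 8.20, with KRT5 and KRT14 at 0, and led by ELF3 and CLDN4 (log2 differences 2.23 and 1.89). In bulk RNA, fewer cells of a type and less RNA per cell cannot be told apart.

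Gene length moved with the differences. Over 10 bins of about equal size, the median difference of the sh004 spheres from control ran from 0.17 in genes of 717 to 1832 bases to -0.44 in those of 9202 bases or more. Reads of ribosomal protein genes, which are short, took 6.14% of all reads in the control and 6.99% and 7.22% in the sh004 spheres. The part of RNA length or quality in these differences was not tested. The 24 NF-kB genes tested, 4 of them tested only through the sh004 spheres, had a median of 3.46, and of 3.55 when each was set against the median of its length bin. For the 22 class I genes, 3 of them tested only through the sh004 spheres, these were 2.38 and 2.5. For the lists on the other side, cell cycle genes had -0.56 (29 of 32 below), cholesterol genes -0.56 (19 of 24), and synaptic vesicle genes -0.57 (19 of 24), where the synaptic median without regard to length was -0.91.

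**Figure D4:**
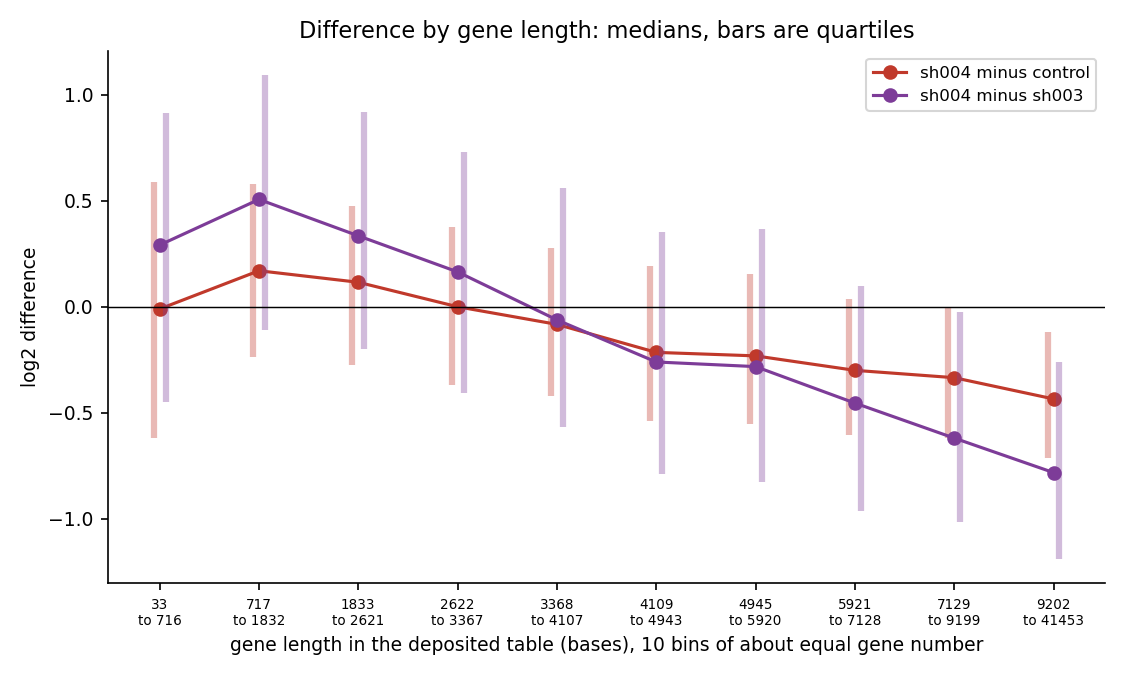
Median log2 difference (points) with quartiles (bars) by gene length in bases, in 10 bins of about equal gene number, for the sh004 spheres against the control and against the sh003 spheres. Both lines fall with length, from 0.17 to -0.44 against control and from 0.51 to -0.78 against sh003, counted from the second bin to the last.

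Against the sh003 spheres, with 2 libraries on each side, 5865 genes (39.9%) were called, 2470 higher (16.8%) and 3395 lower (23.1%) with sh004, and 51.8% had an unadjusted p under 0.05. This count rests on single libraries: without the second library of either group it was 0 by limma, and it was 1765 without the sh004 sh1 and 4147 without the sh003 sh1 sphere. Of the 18 genes that rose over control, 17 were also higher than in sh003, and in those 17 the lower sh004 sphere lay above both sh003 spheres. Both sh004 spheres lay above both sh003 spheres in 33.0% of all genes tested. In 16 of the 18, both sh003 spheres also lay above the control. The share of all genes for that order was not computed, and genes picked as low in the control favour it. The sh004 comparisons with control and with sh003 share the sh004 libraries and are given side by side.

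The genes that stood furthest above sh003 were CCL19, CXCL10, HSD11B1, CHI3L1, IER3 and G0S2. HSD11B1, which regenerates active glucocorticoid, had no read in the control sphere, 52.6 and 20.9 RPKM with sh004 and 0.659 and 0 with sh003 (log2 difference from sh003 5.47, SE 0.55, adjusted p = 0.00867; from control 6.08, adjusted p = 0.0592). CHI3L1, a secreted chitinase-like protein of inflamed tissue, was at 0.0151 in the control, 42.5 and 11.4 with sh004 and 0.0984 and 0.0423 with sh003 (log2 difference from sh003 5.31, SE 0.58, adjusted p = 0.00867). For HSD11B1 and CHI3L1 both sh003 spheres stayed under 1 RPKM. IER3 differed from these, at 15.8 and 0.744 RPKM in the sh003 spheres against 0.437 in the control. Of the members tested, 11 of 24 NF-kB, 9 of 12 chemokine, 7 of 14 complement, 16 of 22 class I and 11 of 20 interferon-stimulated genes were higher than with sh003, against 16.8% of all genes tested, and CANX and USP18 were the members lower. These counts take in genes tested only through the sh004 spheres, 4 of the NF-kB, 4 of the chemokine, 2 of the complement, 3 of the class I and 3 of the interferon-stimulated list, which passed the filter because they were high there.

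The genes furthest below sh003 were RGS4, CDKN1C, OLFM1, AQP1, SLC18A1 and ELFN1. RGS4, a brake on G-protein signalling, was at 75.9 RPKM in the control, at 4.80 and 11.4 with sh004 and at 152 and 216 with sh003 (log2 difference from sh003 -4.52, SE 0.40, adjusted p = 0.00820; from control -3.27, adjusted p = 0.0838). SLC18A1, a vesicular monoamine transporter, was at 3.23 in the control, 0.766 and 1.72 with sh004 and 15.3 and 28.4 with sh003 (log2 difference from sh003 -3.67, adjusted p = 0.00867). For both, the control stood between the groups, and for SLC18A1 it was nearer to sh004. Of the 30 hypoxia and glycolysis genes tested, 16 were lower and 1 higher than with sh003, where 23.1% of all genes tested were lower. VEGFA, the vascular growth factor, was at 4.30 in the control, 3.32 and 2.35 with sh004 and 28.5 and 44.9 with sh003 (log2 difference -3.46, adjusted p = 0.00756), so here the sh003 spheres stood apart from control and sh004 alike. Also lower than with sh003 were 12 of 32 cell cycle genes and 13 of 24 cholesterol genes tested, against 0 and 2 higher.

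The sh004 spheres differed from each other in some genes, chosen here after their values were seen. EMP3, a membrane protein, was at 2.90 RPKM with sh1 and 29.5 with sh2, and DIO3, which inactivates thyroid hormone, at 8.24 and 51.7. The reverse held for PTGS2, the inducible prostaglandin synthase (10.8 and 1.49), for the natriuretic peptide gene NPPC (11.3 and 1.70), and for ID1 and ID3, inhibitors of bHLH factors (47.6 and 11.1, and 18.0 and 3.80). With 1 library for each shRNA, a difference between shRNAs cannot be told apart from one between libraries.

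For some of the largest differences from control, which did not pass, the sh003 pair spread widely. IL32, a proinflammatory cytokine, was at 0.731 RPKM in the control and at 351 and 366 with sh004, but at 138 and 0.911 with sh003 (log2 difference 8.19, SE 2.31, adjusted p = 0.141). OR2I1P, an olfactory receptor gene of the extended HLA region, was at 151 and 154 with sh004 and at 49.98 and 0 with sh003 (log2 difference from control 8.11, SE 2.32, adjusted p = 0.143). TNF was at 0.0151 in the control, 23.0 and 28.4 with sh004 and 18.5 and 0.0210 with sh003 (log2 difference 5.66, adjusted p = 0.163). In each the sh004 spheres were alike and the sh003 sh1 sphere high. At the other end, JAG1, a Notch ligand, was at 32.3 in the control, 2.97 and 4.74 with sh004 and 2.98 and 4.94 with sh003 (log2 difference from control -2.95, adjusted p = 0.0689), so both knockdown groups lay below the control sphere and overlapped.

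A run of neighbouring genes on chromosome 1 was among those high with sh004, a pattern noticed after their values were seen. LAMB3 (bases 209614870 to 209652466), G0S2 (209675420 to 209676388) and HSD11B1 (209686178 to 209734950) follow one another, with the antisense gene AL031316.1 between and across them. AL031316.1 had no read in the control and 2.06 and 1.88 RPKM with sh004 (log2 difference 2.30, adjusted p = 0.105). It overlaps G0S2 and HSD11B1, and without the strand setting its reads cannot be told apart from theirs. The genes on either side of the run differed. CAMK1G was at 1.78 in the control and at 0.752 and 0.816 with sh004, and TRAF3IP3 at 1.11 against 1.12 and 1.01 (log2 difference -0.04, adjusted p = 0.953). Beyond TRAF3IP3, C1orf74 was at 7.53 against 5.95 and 8.56 (log2 difference -0.07, adjusted p = 0.899).

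Promoters of a pair of genes are shown because TNFAIP6 is called and CXCL10 is the chemokine next to passing. The 250 bases before the gene start come from RefSeq (GRCh38.p14), and capitals mark matches, on either strand, to TGACTCA (the AP-1 motif), to a loose NF-kB motif (GGG, any 5 bases, CC) and to an interferon response motif (GAAA, any 2 bases, GAAA). The windows are chr2:151357342-151357591 on the plus strand and chr4:76023498-76023747 on the minus strand.
TNFAIP6: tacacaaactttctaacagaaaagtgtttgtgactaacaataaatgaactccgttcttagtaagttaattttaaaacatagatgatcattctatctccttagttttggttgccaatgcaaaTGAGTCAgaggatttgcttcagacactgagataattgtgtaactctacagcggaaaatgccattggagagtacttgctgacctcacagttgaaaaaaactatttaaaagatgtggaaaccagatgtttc
CXCL10: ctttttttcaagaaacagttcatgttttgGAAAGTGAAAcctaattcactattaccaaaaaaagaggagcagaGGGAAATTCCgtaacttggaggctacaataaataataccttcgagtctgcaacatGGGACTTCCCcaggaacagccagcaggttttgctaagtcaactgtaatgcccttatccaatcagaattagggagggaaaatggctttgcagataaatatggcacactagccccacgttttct
In windows of 300 bases (250 before to 50 after the start), TGACTCA was found in 1 of the 11 promoters matched among the genes that rose (TNFAIP6) and in 2.81% of the 10160 promoters of genes tested. The loose NF-kB motif was found in 9 of the 11 and in 74.3% of those of genes tested, so its presence sets few genes apart. A stricter NF-kB motif, GGGAA followed by TTTCC, was in 5 of 23 promoters of the NF-kB list (NFKBIA, NFKB1, CXCL1, CXCL2, CXCL3) and in 0.161% of all 27305 promoters. The list is made of known NF-kB targets. Neither this motif nor the interferon motif was found in the promoters of the genes that rose (0 of 11 each). Of the 5 genes with the stricter motif, NFKBIA, NFKB1 and CXCL2, lay above the control in both sh004 spheres, while CXCL1 and CXCL3 had almost no reads. A match is a description of letters and not a site of binding.

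Monolayer cells with the same shRNAs give a reading that the sphere comparison did not use. They were grown in 10% serum (day 0) or with retinoic acid for 7 days, at a dose the labels give as 10 mM. There were 3 control and 2 sh004 libraries at day 0, and 2 control and 2 sh004 at day 7. All sh004 monolayers belong to batch 2, with 1 batch 2 control at each day. Batch 1 monolayers had 2.41% to 3.22% of reads in processed pseudogenes, against 0.179% to 0.273% in other libraries, and HLA-C and HLA-E had no reads in its controls. At day 0 limma called 0 of 19461 genes (378, or 1.94%, at an unadjusted p under 0.05), and at day 7 it called 0 (1564, or 8.04%, unadjusted). With batch as a block, 0 were called at day 0 and 44 (0.226%) at day 7.

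At day 7, most genes that rose in spheres were also above control. Of the 18, 16 (88.9%) were higher at day 7, against 46.3% of all 14247 genes tested in both tables. In 11 both sh004 libraries lay above both controls, against 1984 of the 14247 genes, and 2106 (10.8%) of the 19461 genes tested in monolayers. In 1, PTGIR, both lay below, against 2595 of the 14247. TNFAIP6 was at 0.0413 and 0 RPKM in the controls and at 8.44 and 10.0 with sh004 (log2 difference 4.13 with the block, adjusted p = 0.0110). C1S was at 0.927 and 0.609 against 15.5 and 7.61 (3.23 with the block, adjusted p = 0.0292), and IL34 at 0.204 and 0.263 against 1.82 and 1.68 (1.77 with the block, adjusted p = 0.0292). These 3 were the ones called with the block. IGFBP3 was at 3.56 and 1.79 against 11.3 and 12.6 with no overlap. CCL19, the gene with the largest change in spheres, had no read in either control and 0 and 0.50 with sh004, and CDKN1C was at 2.34 and 2.05 against 0.999 and 17.9. So CCL19 and CDKN1C did not show in these monolayers the levels they had in spheres.

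At day 0 the reading differed with the controls used. Of the 18 genes, 10 (55.6%) were higher than the mean of the 3 controls, against 48.4% of the 14247 genes tested in both tables. In none did the groups separate. Of the 14247 genes, 1363 had both sh004 libraries above the controls and 1531 had both below. Over all 19461 genes tested in monolayers these shares were 7.66% and 10.1%. Against the batch 2 control alone, 16 of the 18 (88.9%) were higher, against 48.1% of all genes, with a median difference of 0.59. The NF-kB list had a median difference of 0.05 from the 3 controls and of 0.95 from the batch 2 control. TNFAIP6 at day 0 was at 0, 0.0199 and 8.87 in the controls of batches 1, 2 and 3 and at 2.41 and 0.595 with sh004. The batch 3 control, which carries the scrambled shRNA, thus lay above both sh004 libraries. The NF-kB list as a whole did likewise: its median level, as log2(RPKM + 0.5), was -0.72, -0.74 and 2.94 in the day 0 controls of batches 1, 2 and 3 and 1.86 and -0.15 with sh004. A high level of these genes was therefore also seen without a CASC15 shRNA, in 1 of 5 control monolayers. The other batch 3 library, sh003 sh1 at day 0, had a median of 3.74 for the list. Batch 3 was thus high with and without a CASC15 shRNA, and it holds no sh004 library.

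At day 7 the NF-kB list was higher in both sh004 libraries. Its median level was -0.29 and 0.40 in the controls and 3.35 and 2.99 with sh004, and all 25 members tested lay above both controls (median difference 2.60, and 2.84 against the batch 2 control). With the block, 5 of them were called. Class I genes lay above both controls in 15 of 19 (median difference 1.88, and 1.17 against the batch 2 control), with B2M among those called with the block (log2 difference 1.75). Chemokine genes lay above in 10 of 14 and interferon-stimulated genes in 12 of 21. For comparison, 10.8% of all genes tested in monolayers lay above both controls at day 7. Synaptic vesicle genes lay below both controls in 15 of 27, against 22.1% of all genes, and above in 0 (median difference -0.83). Cell cycle genes, which lay below the control in spheres, lay above both controls in 9 of 32 at day 7 and below in 0 (median 0.17, and -0.0079 against the batch 2 control).

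**Figure D5:**
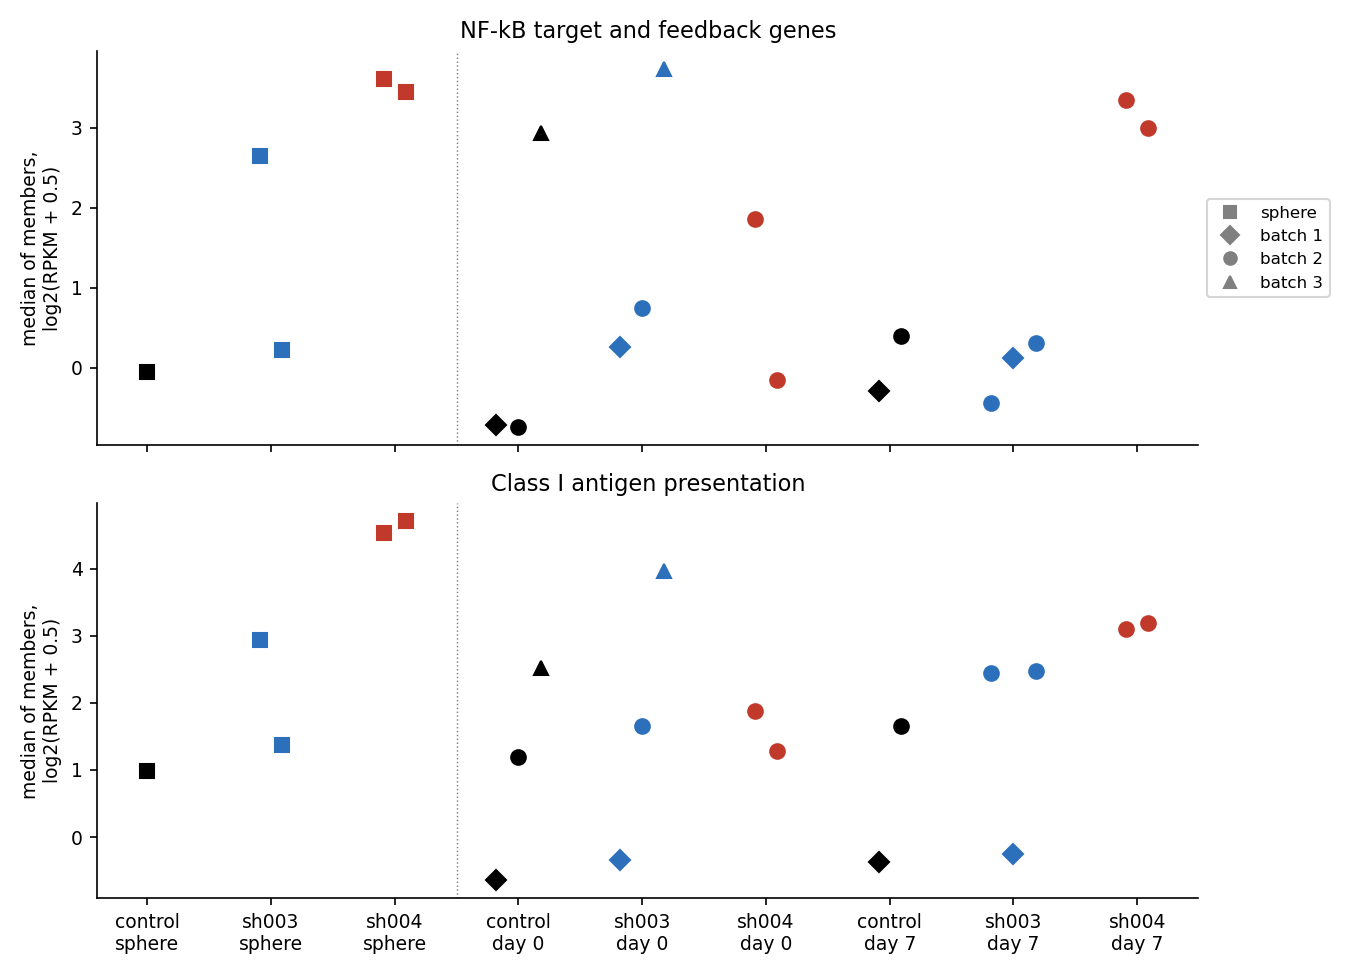
Median level of the NF-kB list (28 genes) and the class I list (22 genes), as log2(RPKM + 0.5), in each sphere and monolayer library, by group; squares are spheres, and diamonds, circles and triangles are monolayers of batches 1, 2 and 3. The sh004 spheres (3.61 and 3.44 for NF-kB) and the sh004 day 7 libraries lie above their controls. Also high for NF-kB are the batch 3 libraries at day 0 (control 2.94, sh003 3.74) and the sh003 sh1 sphere (2.64).

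Of the 44 genes called at day 7 with the block, 34 were higher with sh004, and 33 of these (97.1%) also lay above the control in both sh004 spheres, with a median sphere difference of 2.78, where 31.8% of all genes tested in spheres lay above. The balance of directions turned with the fit: batch 2 libraries alone gave 5 higher and 26 lower, and the fit with no filter on low values, without the block, 22 higher and 47 lower. The 34 include VCAM1, an adhesion receptor (4.16 at day 7, 2.51 in spheres), C3 (5.45 and 4.65), the iron-binding lipocalin gene LCN2 (5.08 and 2.72), the NF-kB inhibitors TNFAIP3 (3.53 and 2.80) and NFKBIA (2.97 and 2.42), and OR2I1P (7.31 and 8.11). Of the 10 that were lower at day 7, 6 lay below the control in both sh004 spheres, near the 49.4% of all genes tested in spheres, among them HEY1, a target of Notch (-1.89 and -2.53). Over all 14247 genes tested in both tables, the sphere difference and the day 7 difference correlated at r 0.321 (0.447 with batch 2 libraries alone). For day 0 the correlation was 0.00355 (0.247 with batch 2 alone). The genes of a library are not independent replicates.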

How the data were processed

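The authors deposited RPKM values per gene in 2 tables used here, 5 sphere libraries and 15 monolayer libraries, each with 63677 genes. The submitters' processing notes name hg19 as the genome build and list the tools TopHat, featureCounts and Subread; versions, annotation release and strand setting are not given in the sources used here. In the deposited sphere table the values of a library were divided by 10 totals in rotation (25.59 to 62.08 M, for 1000000 reads) instead of its own, so whole reads were recovered (all within 0.01 of a whole number) and RPKM recomputed on each library's own total. Symbols came from reference tables, matching 52526 identifiers. Sequences and positions come from GENCODE release 29 and RefSeq (GRCh38), a later build than hg19, matched by sequence, symbol or gene identifier.

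limma 3.58.1 (R 4.3.3), tested on simulated data, modelled log2(RPKM + 0.5) with its mean-variance trend for all 5 spheres (2 residual degrees of freedom, prior 4.22) and all 15 monolayers (9, prior 2.12). Genes at 1 RPKM or above in at least 2 libraries of a table were kept, and p-values were adjusted over all of them. Batches are those numbered in the titles, used as a block for monolayers as an alternative. For list counts every member with a read in the 3 libraries was used, since the filter favours genes high in sh004. Named genes are up to 12 called protein-coding and 4 other called genes per direction (6 against sh003), with a mean RPKM of at least 2, called list members, and up to 4 members of largest change of a list with under 2 calls. The members of the comparison, the gene lists and the tests were chosen with earlier results of these data known. Depth was 11.9 to 62.1 M assigned reads, and the 3-read limits cover counting error only. Alternatives changed the pseudocount, filter, scaling, test, and libraries included. The pair of libraries from another line was not used here. The values of some genes are not reported here.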

Additional observations from a re-analysis of the deposited data

Results flagged for a closer look

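Genes called against control were also tested against the sh003 spheres, and a difference between the knockdown groups marked the following for a second look (log2 difference of sh004 from sh003, each with a limma adjusted p under 0.05). The secreted and receptor genes stood at 6.49 (CCL19), 3.89 (TNFAIP6), 4.08 (IGFBP3), 4.07 (C1S), 4.39 (LAMB3), 2.20 (IL34), 2.47 (PTGIR) and 1.76 (C1QTNF1). The intracellular genes stood at 5.20 (G0S2), 2.34 (SOD2), 2.70 (S100A16), 1.58 (VAMP5) and 1.11 (DRAM1), and the class I genes at 2.05 (HLA-C) and 0.84 (HLA-E). ITPR2-AS1 stood at 3.48 and ENSG00000161570 at 3.49. CDKN1C, at -4.50, and CHD7, at -0.88, lay below sh003, and CHD7 was not called against control. Of the 18 genes that rose, both sh003 spheres lay above the control in 16, for which the share of all genes was not computed. The lower sh004 sphere lay above both sh003 spheres in 17, against 33.0% of all genes tested.

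Some genes that rose in the spheres had a difference of the opposite sign in day 0 monolayers: G0S2 (-1.04), C1S (-1.0), DRAM1 (-0.67), C1QTNF1 (-0.29) and ITPR2-AS1 (-0.12). Whether the sphere and day 0 differences differ was not tested, since the tables were normalized separately. For C1S the batch 3 control was at 6.98 RPKM and the other day 0 controls at 0.0790 and 0.0689, against 0.365 and 0.0302 with sh004, so its mean rests on 1 control library. All sh004 monolayers are of batch 2, and against the batch 2 control alone the differences were -0.46 (G0S2), 0.25 (C1S), 0.19 (DRAM1), 0.78 (C1QTNF1) and -0.089 (ITPR2-AS1), so of these 5 the opposite sign held for G0S2 and ITPR2-AS1.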

How the results depend on the processing

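Calls against the control sphere ran from 0 to 155 over the alternatives. Of the 19 called genes, none reversed in 13 alternatives. The count was 0 with no filter on low values (5233 genes at an unadjusted p under 0.05), 38 with genes at 2 RPKM or above, 155 with RPKM as deposited, 3 with voom on recovered reads and 119 with control and sh004 spheres alone. Leaving out 1 library at a time gave 0 to 122 calls. Without sh004 sh1 or sh2 there were 0 calls, with a smallest adjusted p of 0.301 and 0.177, and without sh003 sh1 or sh2 there were 92 and 122. Against the sh003 spheres there were 0 calls without the filter (9153 unadjusted), 366 with RPKM as deposited (312 higher, 54 lower), 5705 with median-ratio size factors (2656 higher, 3049 lower), 5284 with quantile normalization (2500 higher, 2784 lower) and 0 to 4147 leaving out 1 library at a time. The cause of these shifts was not tested; leaving out a library leaves 1 residual degree of freedom.

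In monolayers the replicate block (batch) gave 0 calls at day 0 and 44 at day 7. With no filter there were 6 and 69 (22 higher, 47 lower), and with batch 2 alone, chosen after seeing the data, 10 and 31 (5 higher, 26 lower), against 34 higher and 10 lower at day 7 with the block. Leaving out 1 library at a time gave 0 at day 0 and 0 to 4 at day 7. Sphere numbers name different shRNAs and pair nothing.

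Values that changed sign were all of uncalled marker genes near 0: CLDN5 (0.40) and PDGFRA (0.39) as deposited, PMEL with median-ratio size factors (0.073) and quantile normalization (0.12), and, over the fits leaving out 1 library at a time, CD14 (-0.23 to 0.37), EGFL7 (-0.084 to 0.24), PDGFRA (-0.66 to 0.25) and PMEL (-0.18 to 0.11). At this depth CCL19 and TNFAIP6 had no read in the control, so their folds are lower bounds.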

Other observations

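The Wnt and retinoid lists held single genes far from their medians. Of 33 Wnt genes with a read, 11 lay above and 13 below the control in both sh004 spheres (median -0.03), and the summed level of the list was 154 RPKM in the control and 316 and 320 with sh004. Retinoid metabolism and receptor genes (20 with a read) summed to 584 RPKM in the control and to 2329 and 1548 with sh004, with 8 above, 7 below and none called. Notch pathway genes summed to 775 in the control and to 550 and 391.9 with sh004, with 9 above and 12 below and none called. Beside these counts, 26.7% of all genes with a read lay above and 41.9% below in both sh004 spheres.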
